A study of Homo sapiens with 22 samples.

Results

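Day 7 (D7) of mRNA reprogramming was compared with day 5 (D5) in human fibroblasts, and the genes that rose or fell over these 2 days were described in each pool of cells. The cells were those of pools A and B of each day that held at least 1000 detected genes and at most 10% mitochondrial UMIs (unique molecular identifiers, 1 per captured RNA molecule). They were 6812 of 41975 such cells, in 7 of 22 libraries. BJ cells, an established line of foreskin fibroblasts, were grown in microfluidic chips and received mRNAs for POU5F1 (OCT4), SOX2, KLF4, MYC, LIN28A and NANOG every day. The series has 8 days, D0 (untransfected), D3, D5, D7, D9, D11, D13 and D15, each read by droplet 3′ single-cell RNA-seq. Both D5 and D7 lay within the period of daily transfection in the same medium, so the groups differed in time and in the number of transfections, which cannot be told apart. Each day had 2 pools, each pool held cells from 4 chips, and pools were stored frozen in aliquots and thawed before loading. The cells came from 1 line, so the spread between pools is that between sets of chips.

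Reprogramming turns a somatic cell into a pluripotent one by supplying transcription factors of the early embryo. Fibroblasts are mesenchymal cells that make collagen, whereas pluripotent cells form epithelial sheets joined by E-cadherin and tight junctions, and a mesenchymal-to-epithelial transition is part of the route. The cells' own pluripotency network (NANOG, POU5F1, UTF1 and others) starts up late, and fibroblasts answer foreign RNA with interferon and inflammatory genes.

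D5 pool A held 1767 cells, D5 pool B 815, D7 pool A 1727 and D7 pool B 2503. Their medians were 44477, 39563, 80168 and 50287 UMIs per cell. D7 pool A was 1 library and the other pools were 2 libraries each, between 190 and 2063 cells. Aliquots of 1 pool stood further apart than pools or days: over the 5790 genes with at least 10 CPM (UMIs scaled to a common library total) in every library of D5 and D7, the median size of the log2 ratio was 0.33 to 0.384 between aliquots, 0.214 between the pools of D5, 0.226 between those of D7 and 0.199 to 0.291 between a pool of D5 and a pool of D7. Counts of genes whose libraries do not overlap are therefore given beside the tests, for all calls and for the lists described at most length. The fibroblast label held: on CPM of the plain totals, VIM, an intermediate filament of mesenchymal cells, was at 2724 to 7108 CPM in the 4 pools, the keratinocyte genes KRT5, KRT14 and KRT1 were at or below 0.037 CPM, and KRT10 was at 208 to 332 CPM.

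Of 12794 genes tested, 232 rose and 31 fell between D5 and D7, which is 1.81% and 0.242% of the genes (2.06% in either direction). A gene was called with a Benjamini-Hochberg adjusted p below 0.01 in edgeR's quasi-likelihood test and a log2 fold change beyond 0.25. The rises were large and mostly of scarce genes, with a median log2 fold change of 2.37, a median level that went from 0.483 to 2.37 CPM, and 158 of the 232 below 5 CPM on D7. The falls were smaller, with a median size of 1.25, from a median of 16.7 CPM to 7.09 CPM. All 3 libraries of D7 lay above all 4 of D5 in 229 of the 232 rises, and below them in 31 of the 31 falls. Over all genes tested these shares were 7.5% and 6.17%. The calls were made on sums of these same libraries, which largely fixed this outcome, so it is not a separate check. The number of calls rested on the libraries used: without D5 pool A it was 28, without D5 pool B 119 and without D7 pool A 106. With DESeq2 it was 610.

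Of the 12 largest rises among genes with at least 10 CPM in both pools of D7, 4 were pluripotency genes or factors (UTF1, NANOG, POU5F1 and GDF3). UTF1 (ENSG00000171794, chr10:133230217-133231558 in GRCh38), a chromatin protein of undifferentiated cells, was at 1.78 and 3.37 CPM in pools A and B of D5 and at 84.1 and 44.5 CPM in those of D7. Both pools of D7 stood far above both of D5, and the log2 fold change was 4.68 ± 0.51 (SE; edgeR adjusted p = 0.00031). Without D5 pool A the adjusted p was 0.0141. NANOG (ENSG00000111704, chr12:7787794-7799146), a core homeobox factor of pluripotency, went from 0.817 and 0.562 CPM to 12.8 and 10.1 CPM (log2 fold change 4.00 ± 0.25, adjusted p = 1.8e-05). POU5F1 (chr6:31164337-31180731) went from 3.32 and 6.21 CPM to 40.2 and 31.2 CPM (2.92 ± 0.37, adjusted p = 0.00064, and 0.0215 without D5 pool A). Reads of the near-identical copy POU5F1B could be counted in its place, so its level is uncertain.

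NANOG and POU5F1 were also among the transfected mRNAs, and UMIs of transfected RNA and of the cells' own transcripts cannot be told apart here. AES, taken as a tracer of transfected RNA because it stood at 9940 CPM on D3 against 160 CPM before transfection and 345 CPM at D11, was at 13739 and 13002 CPM in the pools of D5 and 9124 and 7514 CPM in those of D7 (log2 fold change -0.68 ± 0.25, adjusted p = 0.19). The other transfected factors were not called. SOX2 was at 31.0 and 54.3 CPM on D5 and 27 and 11 CPM on D7 (adjusted p = 0.29), and LIN28A at 174 and 269 against 222 and 86.6 CPM. KLF4 was at 9.12 and 4.41 against 2.84 and 8.12 CPM, with overlapping pools, and MYC at 44.8 and 31.0 against 18.7 and 23.3 CPM.

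**Figure D1:**
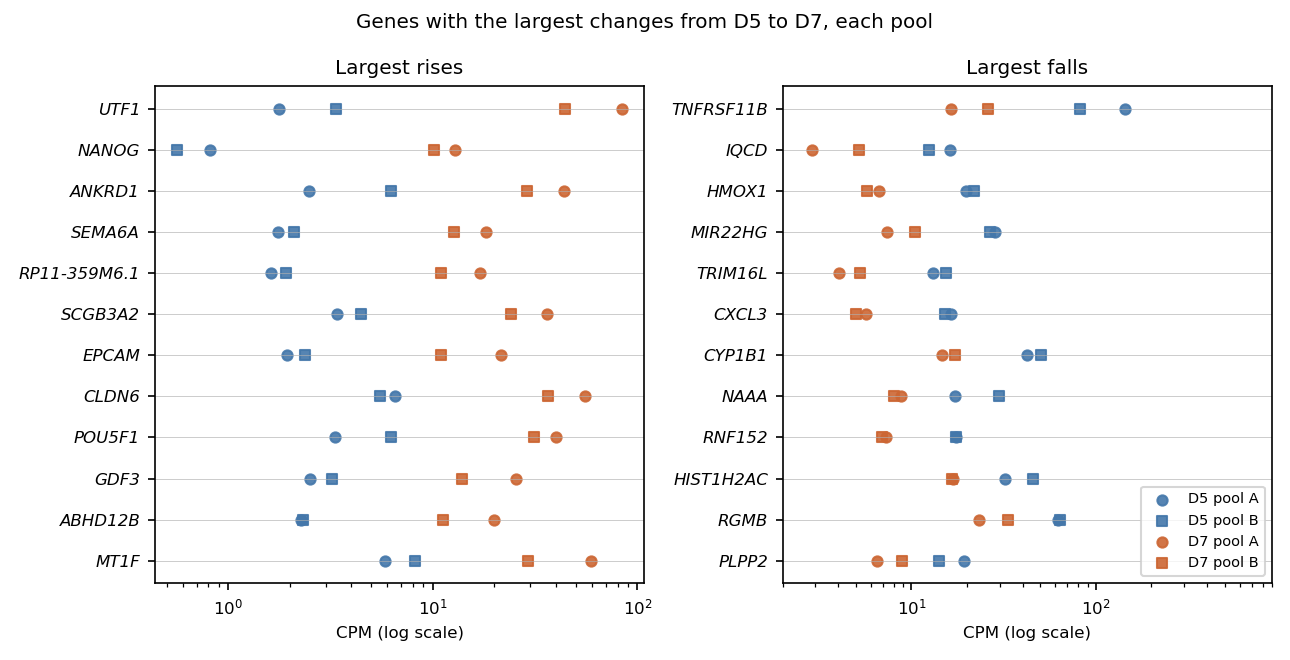
Level in CPM (log scale) of the 12 largest rises and 12 largest falls among called genes with at least 10 CPM in both pools of the higher day, 1 point per pool. In every gene the 2 pools of D7 (orange) lie on one side of the 2 pools of D5 (blue), as the choice of these genes required.

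The promoters of NANOG and of GDF3, a TGF-beta family ligand of pluripotent cells, are shown because both genes rose and hold a SOX-type motif (capitals) in the RefSeq window of 250 bases before to 50 after the start. The first lies at chr12:7789280-7789306 on the plus strand, 112 bases before the start, and the second at chr12:7695950-7695976 on the minus strand, 191 bases before it (GRCh38.p14).
NANOG: cttttgcattACAATGGccttggtgag
GDF3: gacaacctcaCATTGTTgtagaattta
Either ACAATGG or CATTGTT, searched on both strands, was present in 7 of the 140 risen genes with a promoter in the table (5%), in 277 of 9545 tested genes (2.90%) and in 1514 of 27305 promoters in all (5.55%). The octamer ATGCAAAT was present in 3 of the 140 (2.14%) and in 111 of the 9545 (1.16%), and in 492 of all promoters (1.80%). These are matches of letters and say nothing of binding. GDF3 itself went from 2.52 and 3.22 CPM to 25.5 and 13.9 CPM, and unlike that of NANOG its call was lost without D5 pool A, D5 pool B or D7 pool A (adjusted p up to 0.0412).

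Of 36 pluripotency genes tested, 15 rose and none fell, against 1.81% and 0.242% of all genes. The median log2 fold change was 1.97 (1.70 with the 4 genes that had no UMI on D5 set to their lower bound), against -0.01 over all genes. Both pools of D7 were above both of D5 in 33 of the 36, against 22.8% of all genes, and all libraries in 28, against 7.5%. The list was chosen with results of these samples known and is not independent evidence of its direction. TDGF1, the Nodal co-receptor Cripto, was the most abundant to rise, from 21.2 and 25.8 CPM to 133 and 100 CPM (2.32 ± 0.27, adjusted p = 0.00047). VRTN went from 0.056 and 0.148 CPM to 4.39 and 3.20 CPM (5.47 ± 0.41, adjusted p = 3.1e-05). Among the DPPA genes, named for developmental pluripotency, DPPA4 went from 3.19 and 2.90 CPM to 13 and 10.7 CPM. DPPA3 (Stella) went from 0.134 and 0.148 CPM to 1.97 and 0.977 CPM. DPPA2 had no UMI on D5 and 192 UMIs on D7, which is at least 28.1-fold higher when D5 is set to 3 UMIs over both pools. The de novo DNA methyltransferase DNMT3B went from 1.13 and 0.828 CPM to 3.70 and 3.90 CPM (1.92 ± 0.26, adjusted p = 0.0010). Of these, VRTN, with 5 UMIs in each pool of D5, kept its call with each pool left out, at a log2 fold change of 4.67 without D5 pool A and 6.06 without D5 pool B. TDGF1, DPPA2 and DPPA3 lost it without D5 pool A, and DNMT3B lost it without D5 pool A or D5 pool B.

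**Figure D2:**
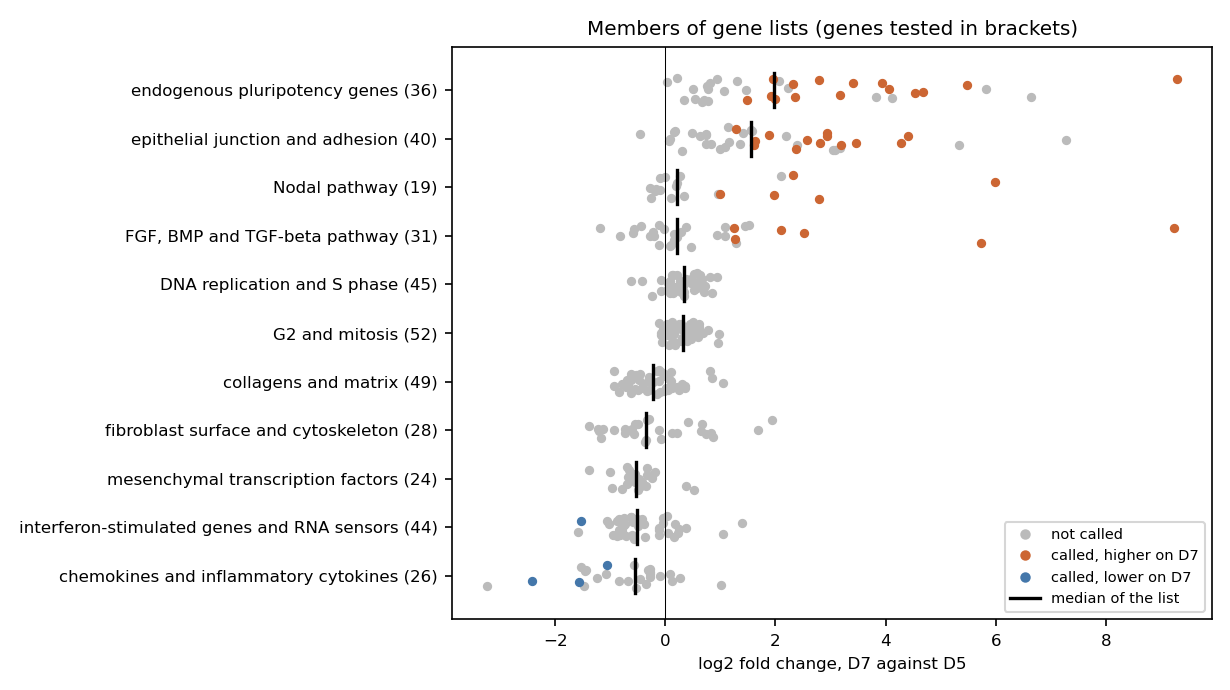
Log2 fold change of each tested member of 11 gene lists, D7 against D5 (horizontal axis), with the list's median as a black bar and called genes in colour. The median is 1.97 for pluripotency and 1.56 for epithelial genes and is below 0 for the collagen, fibroblast, interferon and chemokine lists. Points far to the right with no UMI on D5 have fold changes that depend on the prior count.

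Epithelial genes rose as well, from very low levels. Of 40 tested, 13 rose and none fell, against 1.81% and 0.242% of all genes. The median log2 fold change was 1.56 (1.48 with unseen genes at their bound). Both pools of D7 were above both of D5 in 35, against 22.8% of all genes, and all libraries in 27, against 7.5%. EPCAM (chr2:47345158-47387601), an adhesion protein of epithelia, went from 1.94 and 2.37 CPM to 21.5 and 10.9 CPM (2.93 ± 0.33, adjusted p = 0.00035). CLDN6, a tight junction claudin of embryonic epithelia, went from 6.55 and 5.50 CPM to 55.5 and 36.5 CPM (2.93 ± 0.44, adjusted p = 0.0020). CDH1, E-cadherin itself, was barely detectable: it had 3 UMIs on D5 and 79 on D7, a ratio of 11.5 with a 95% counting interval of 3.81 to 57.2. ESRP1, an epithelial splicing regulator, went from 0.0336 and 0.0887 CPM to 0.966 and 1.01 CPM, and RAB25, an epithelial trafficking protein, from 0.0224 and 0.0591 CPM to 0.700 and 0.738 CPM. CDH1, ESRP1 and RAB25 each had a UMI in under 5% of the cells of every pool of D5 and D7, without thinning. They passed the gene filter of 5% of all cells through other days. A gene this scarce on D5 could hardly be called as a fall, so the lack of falls is in part fixed by this filter. The mesenchymal cadherin CDH2 was at 30.2 and 28.4 CPM on D5 and 46.3 and 45.8 CPM on D7, without a call (adjusted p = 0.12). No keratin of 7 was called by edgeR or DESeq2. At an unadjusted p below 0.05 in edgeR there were 4 of them, 3 higher and 1 lower on D7, against 16.1% of all genes. The calls of CLDN6 and CDH1 were lost without D5 pool A (adjusted p = 0.0412 and 0.171), and also without D5 pool B or D7 pool A (up to 0.0348 and 0.0336). Without D5 pool A no epithelial gene was called, and 2 of the pluripotency genes were.

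Signalling genes of pluripotent cells appeared among the rises by role. NODAL, a TGF-beta family ligand, had 10 UMIs on D5, all of them in pool A, and reached 6.94 and 3.06 CPM on D7 (5.98 ± 0.67, adjusted p = 0.00035). The size of this fold rests on D5 pool A, since D5 pool B had no UMI. The log2 fold change was 12.2 without D5 pool A, where it depends on the prior count, and 5.27 without D7 pool A. FOXH1, the DNA-binding partner of SMAD in Nodal signalling, went from 2.27 and 2.66 CPM to 12.1 and 7.27 CPM. The receptor ACVR2B went from 4.45 and 5.62 CPM to 10.5 and 9.53 CPM (adjusted p = 0.0099). The Nodal inhibitors LEFTY1 (1.51 and 0.503 against 1.39 and 1.09 CPM) and LEFTY2 (0.369 and 0.0591 against 0.210 and 0.811 CPM) had overlapping pools. The call of NODAL held with each pool left out, and that of FOXH1 was lost without D5 pool A, D5 pool B or D7 pool A (up to 0.0521). In all, 5 of 19 tested genes of the pathway rose and none fell, against 1.81% and 0.242% of all genes. TDGF1 and GDF3 are among the 5 and were also counted in the pluripotency list. The median log2 fold change of the 19 was 0.21. Both pools of D7 were above both of D5 in 7 and below in 1, against 22.8% and 21.8% of all genes.

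Among 31 tested genes of the FGF, BMP and TGF-beta pathways 6 rose, against 1.81% of all genes. FGF4, a growth factor of the inner cell mass, had no UMI on D5 and 184 on D7, at least 26.9-fold higher. FGF19 had 4 UMIs on D5, all in pool A, and 490 on D7. ID1 and ID3, targets of BMP signalling that block differentiation factors, were far more abundant: ID1 went from 39.0 and 42.3 CPM to 105 and 89.3 CPM (1.26 ± 0.16, adjusted p = 0.00061) and ID3 from 92.5 and 135 CPM to 305 and 234 CPM (1.24 ± 0.23, adjusted p = 0.0074). The calls of ID1 and ID3 were not followed with each pool left out. Of other lists, CYP26A1, which degrades retinoic acid, had 2 UMIs on D5 and stood 71.4 times higher on D7 (95% counting interval 19.6 to 592). WNT3 went from 0.672 and 0.562 CPM to 2.37 and 1.53 CPM. APOE, a lipid carrier, went from 72.9 and 58.9 CPM to 201 and 185 CPM (1.55 ± 0.18, adjusted p = 0.00048) and kept its call with each pool left out. The calls of FGF4 and CYP26A1 were lost without any 1 of the 4 pools (adjusted p up to 0.0900 and 0.121), that of WNT3 without D5 pool A, D5 pool B or D7 pool A (up to 0.0731) and that of FGF19 without D5 pool A (0.0155).

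Inflammatory genes were among the falls. Of 26 tested genes in a list of chemokines, cytokines and related genes, 3 fell and none rose, against 0.242% and 1.81% of all genes. Of the 3, TNFRSF11B and SOD2 are not chemokines or cytokines. The list had a median log2 fold change of -0.55, and both pools of D7 were below both of D5 in 13, against 21.8% of all genes. All libraries of D7 were below all of D5 in 9 and above in 1, against 6.17% and 7.5% of all genes. TNFRSF11B, the decoy receptor osteoprotegerin, was at 143 and 82.1 CPM on D5 and at 16.4 and 25.8 CPM on D7 (-2.42 ± 0.43, adjusted p = 0.0060). Its mean was 193 CPM on D0, before transfection, and 93.5 CPM on D3. CXCL3, a neutrophil chemokine, went from 16.4 and 15.3 CPM to 5.64 and 5 CPM (-1.57 ± 0.27, adjusted p = 0.0047), and SOD2, a mitochondrial superoxide dismutase induced by NF-kB, from 84.8 and 73.6 CPM to 33.7 and 42.1 CPM (-1.06 ± 0.17, adjusted p = 0.0037). The call of SOD2 was lost without D5 pool A, D5 pool B or D7 pool A (adjusted p up to 0.0551). That of CXCL3 was lost without any 1 of the 4 pools, and that of TNFRSF11B without D5 pool A, D7 pool A or D7 pool B, with an adjusted p of up to 0.103.

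Of 44 tested interferon-stimulated genes and RNA sensors 1 fell, against 0.242% of all genes. This was ISG20, an exonuclease that degrades viral RNA. It went from 9.99 and 12.2 CPM to 3.22 and 4.49 CPM (-1.52 ± 0.25, adjusted p = 0.0037), and its call was lost without D5 pool A, D5 pool B or D7 pool A. The median of the list was -0.51, with 27 of 44 genes lower in both pools of D7, against 21.8% of all genes. All libraries of D7 were below all of D5 in 11 of the 44 and above in 0, against 6.17% and 7.5% of all genes. B2M, the light chain of MHC class I, was at 1868 and 2077 CPM in the D5 pools and at 1087 and 1237 CPM in those of D7, without a call (adjusted p = 0.050), and MX1 stood higher on D7 (7.62 and 4.77 CPM) than on D5 (2.78 and 3.25 CPM), also without one. The promoter of ISG20 holds the interferon response element, here GAAA, any 2 bases and GAAA (capitals), at chr15:88638937-88638966 on the plus strand, 69 bases before the start.
ISG20: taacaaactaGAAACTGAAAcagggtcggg
This motif, on both strands, was present in 2 of the 18 fallen genes with a promoter in the table and in 264 of 9545 tested genes (2.77%), and in 996 of all promoters (3.65%).

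Further rises were of genes outside these groups. SEMA6A, a transmembrane semaphorin, went from 1.76 and 2.10 CPM to 18.2 and 12.7 CPM, and SCGB3A2, a secretoglobin, from 3.39 and 4.47 CPM to 36.2 and 24 CPM. ABHD12B went from 2.27 and 2.31 CPM to 19.8 and 11.2 CPM, and the non-coding RP11-359M6.1 from 1.62 and 1.92 CPM to 17.0 and 10.9 CPM. These 4 genes did not overlap between days in any pool, as their choice required. The calls of SCGB3A2, ABHD12B and RP11-359M6.1 held with each pool left out. MT1F, a metallothionein that binds zinc and copper, went from 5.84 and 8.13 CPM to 59.3 and 29.1 CPM. It was the only one of 8 metallothioneins called, against 1.81% of all genes that rose. The median log2 fold change of the 8 was 0.97, and the highest, 2.88, was that of a gene without a call. Both pools of D7 were above both of D5 in 4 and below in 2, against 22.8% and 21.8% of all genes. Of 26 proteases and inhibitors 2 rose, against 1.81% of all genes. MMP9, a secreted gelatinase, had 2 UMIs on D5 and stood 40.5 times higher on D7 (95% counting interval 11.1 to 337). MMP15, a membrane-bound metalloproteinase, went from 1.72 and 0.976 CPM to 3.75 and 4.67 CPM. The calls of SEMA6A and MMP9 were lost without D5 pool A (adjusted p = 0.0128 and 0.0634), that of MT1F without D5 pool A, D5 pool B or D7 pool A (up to 0.121) and that of MMP15 without any 1 of the 4 pools (up to 0.0754).

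Other falls were of enzymes and regulators. HMOX1, heme oxygenase 1, went from 19.6 and 21.7 CPM to 6.65 and 5.76 CPM (-1.73 ± 0.20, adjusted p = 0.00047). CYP1B1, a cytochrome P450, went from 42.3 and 50.2 CPM to 14.7 and 17.1 CPM, and RGMB, a BMP co-receptor, from 62.5 and 63.6 CPM to 23.2 and 33.2 CPM. NAAA, a lysosomal acid amidase, went from 17.2 and 29.7 CPM to 8.74 and 8.08 CPM, and the histone gene HIST1H2AC from 32.0 and 45.5 CPM to 16.9 and 16.5 CPM. IQCD went from 16.2 and 12.4 CPM to 2.88 and 5.19 CPM, the second largest fall named (-1.83 ± 0.29, adjusted p = 0.0032). The smaller falls of MIR22HG, RNF152 and PLPP2 had log2 fold changes of -1.62, -1.30 and -1.12. TRIM16L, a near copy of TRIM16 that can share its reads, went from 13 and 15.3 CPM to 4.03 and 5.28 CPM. HMOX1 kept its call with each pool left out. The calls of CYP1B1 and RGMB were lost without D5 pool A, D5 pool B or D7 pool A, those of NAAA and HIST1H2AC without D5 pool B, D7 pool A or D7 pool B, that of TRIM16L without D7 pool A, that of IQCD without D5 pool A or D7 pool A, and those of MIR22HG, RNF152 and PLPP2 without any 1 of the 4 pools (adjusted p up to 0.137). The mean of HMOX1 was 9.25 CPM on D3 and 20.7 CPM on D5. It was 6.21 CPM on D7, 26.6 CPM at D9 and 9.63 CPM at D11, so that its level went up and down between neighbouring days. The mean of CYP1B1 did so too, at 17.4 CPM on D3, 46.3 CPM on D5, 15.9 CPM on D7, 43.8 CPM at D9 and 23.5 CPM at D11. Of the 31 falls, 3 had all pools of D9 and D13 above all of D3 and D11, and 4 had them below. Over all genes these shares were 3.35% and 5.11%.

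Fibroblast genes were not called. None of 24 mesenchymal transcription factors, 49 collagen and matrix genes or 28 fibroblast surface and cytoskeleton genes passed the test, with median log2 fold changes of -0.52, -0.23 and -0.34. Both pools of D7 were below both of D5 in 13, 7 and 14 of them, against 21.8% of all genes, and above in 0, 4 and 9, against 22.8%. All libraries of D7 were below all of D5 in 6, 1 and 5, against 6.17%, and above in 0, 2 and 3, against 7.5%. TWIST2 was at 322 and 274 CPM on D5 and 111 and 185 CPM on D7 (-1.01 ± 0.28, adjusted p = 0.067). SNAI2 was at 50.5 and 33.4 against 20.8 and 31.0 CPM (adjusted p = 0.52). COL1A1 was at 1430 and 698 CPM on D5 and at 571 and 1560 CPM on D7, so its 2 pools of a day differed more than the days. At an unadjusted p below 0.05, edgeR gave 6, 4 and 15 genes of these lists in either direction, against 16.1% of all genes. All 6 of the transcription factors were lower on D7, and DESeq2 called 0, 1 and 3 of them.

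Genes of S phase and of mitosis stood slightly higher on D7 without a call. The median log2 fold change was 0.35 over 45 S phase genes and 0.33 over 52 genes of G2 and mitosis. Both pools of D7 were above both of D5 in 23 and 32 of them, against 22.8% of all genes. All libraries of D7 were above all of D5 in 9 and 9 of them, against 7.5% of all genes. At an unadjusted p below 0.05 in edgeR, 11 and 13 of them were higher and none lower, against 9.18% and 6.96% of all genes, and DESeq2 called 3 and 2. HGF was at 31.1 and 20.1 CPM on D5 and 9.42 and 16.4 CPM on D7 (adjusted p = 0.25), and its receptor MET at 11.9 and 15.8 against 14.0 and 13.7 CPM. SPP1, osteopontin, was at 80.1 and 88.9 against 394 and 258 CPM and missed the call (1.95 ± 0.39, adjusted p = 0.013). The growth factor NRG1 was at 10.5 and 11.2 against 8.86 and 8.08 CPM (adjusted p = 0.48), and its receptor ERBB3 at 1.67 and 2.48 against 4.21 and 3.66 CPM (adjusted p = 0.069). INHBA, an activin subunit, was at 10.4 and 11.6 against 14 and 12.4 CPM (adjusted p = 0.71), and the fibroblast surface protease ANPEP at 180 and 80.9 against 23.1 and 77.4 CPM (adjusted p = 0.25).

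The rise could be followed in single cells once depth was made equal. With each cell thinned to 5000 UMIs, UTF1 had a UMI in 0.453% and 1.35% of the cells of D5 pools A and B and in 24.8% and 7.51% of those of D7. It had none in the 2 pools of D0, fibroblasts that should lack it, which allows shares of up to 0.0488% and 0.0647% there (counting error only). At 20000 UMIs the shares of D0 were 0% and 0.05%. D0 holds almost no UTF1 RNA, so free RNA or doublets in the D7 libraries were not measured by it, and their part in the D7 shares was not tested. Without thinning the shares were 4.47% and 6.13% on D5 and 91.5% and 25.7% on D7, and the median depth of D0 was 23717 and 28376.5 UMIs. EPCAM went from 0.962% and 0.859%, close to the 0.798% and 1.04% of D0, to 7.76% and 2.88%. TNFRSF11B fell from 34.9% and 21.1% of cells to 7.30% and 10.5%. The 2 pools of D7 differed by over 3 times in UTF1 at equal depth.

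Within each pool UTF1 was more frequent in the cells with little collagen, but in D7 pool A it was frequent in collagen-rich cells too. In cells thinned to 20000 UMIs, UTF1 was present in 82.6% of the 10% of D7 pool A cells with the fewest collagen and matrix UMIs and in 50% of the 10% with the most, against 57.2% of all its cells. In D7 pool B these shares were 54.2% and 5.42%, in D5 pool A 7.06% and 0.588%, and in D5 pool B 13.5% and 0%, the last being 0 of 74 cells, which allows a share of up to 4.05%. EPCAM was at 40.7% against 11% in D7 pool A and 32.5% against 2.92% in D7 pool B. APOE went the other way, at 66.3% in the low and 94.2% in the high collagen cells of D7 pool B. TNFRSF11B, which fell with time, was less frequent in low collagen cells, at 24.7% in D5 pool A and 8.75% in D7 pool B. Its shares in high collagen cells, 53.5% and 18.3%, were not both above those of all cells, 53.3% and 24.2%. Thinning to a fixed total ties the genes of a cell together, and cells of 1 pool are not replicates, so these shares are descriptions.

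**Figure D3:**
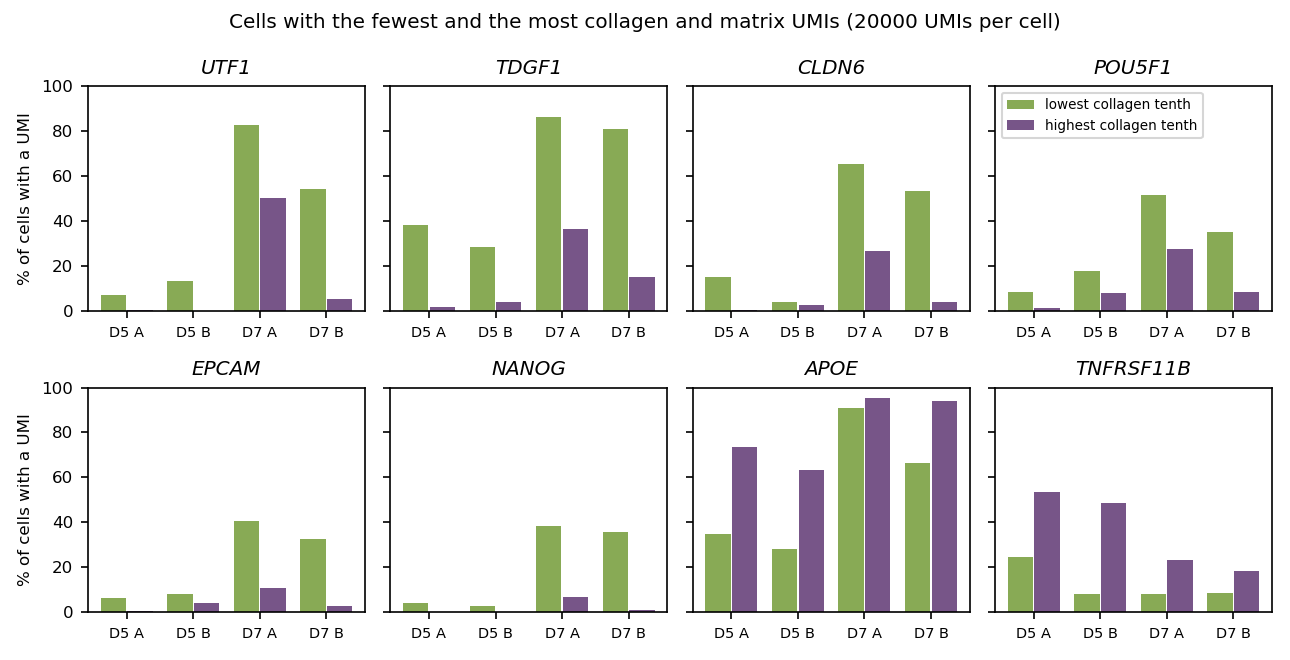
Share of cells (%) with a UMI of 8 genes among the 10% of cells with the fewest (green) and the most (purple) collagen and matrix UMIs in each pool, each cell thinned to 20000 UMIs. UTF1 is at 54.2% and 5.42% in D7 pool B, whereas APOE and TNFRSF11B are higher in the high than in the low collagen cells.

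The summed pluripotency and collagen UMIs per cell had Spearman's rho of -0.609 and -0.495 in D5 pools A and B and -0.690 and -0.732 in D7 pools A and B, over 1701, 741, 1721 and 2403 cells that share a library and a fixed total. The median pluripotency sum was 4 and 6 UMIs per cell on D5 and 13 and 7 on D7. In D7 pool B, the 369 cells with UTF1 had EPCAM in 29.0% and NANOG in 28.7%, against 5.06% and 3.24% of the other cells, and held a mean of 17.2 COL1A1 UMIs against 46.1. In D7 pool A the contrast was weaker: the 984 cells with UTF1 had EPCAM in 25.9% and NANOG in 18.4%, against 14.2% and 8.28% of the others, and a mean of 12.9 COL1A1 UMIs against 16.7.

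The days on either side placed these changes. UTF1 had a mean of 0.0766 CPM on D3 and 214 CPM on D9, and NANOG 0.0674 and 63.9 CPM. POU5F1 reached 430 CPM on D9 and EPCAM 149 CPM. CDH1 was at 6.05 CPM on D9 and 39.0 CPM on D15. Genes were tested only with a UMI in at least 5% of the cells of all 8 days. Scarce genes of D7 could pass this filter through later days, so the later levels of the rises are in part fixed by it. The lack of falls in the pluripotency, epithelial and Nodal lists is in part fixed in the same way. Over the 232 rises, the median level was 0.087 CPM on D3 and went on to 9.70 CPM on D9 and 14.3 CPM on D15. The 31 falls had a median of 12.3 CPM before transfection, 11.2 CPM on D3, 16.7 CPM on D5 and 7.09 CPM on D7. It was 5.67 CPM on D9 and 5.25 CPM at the end, on D15. Of the 31, 21 had a lower mean on D3 than on D5, and 8 had a higher mean on D9 than on D7.

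**Figure D4:**
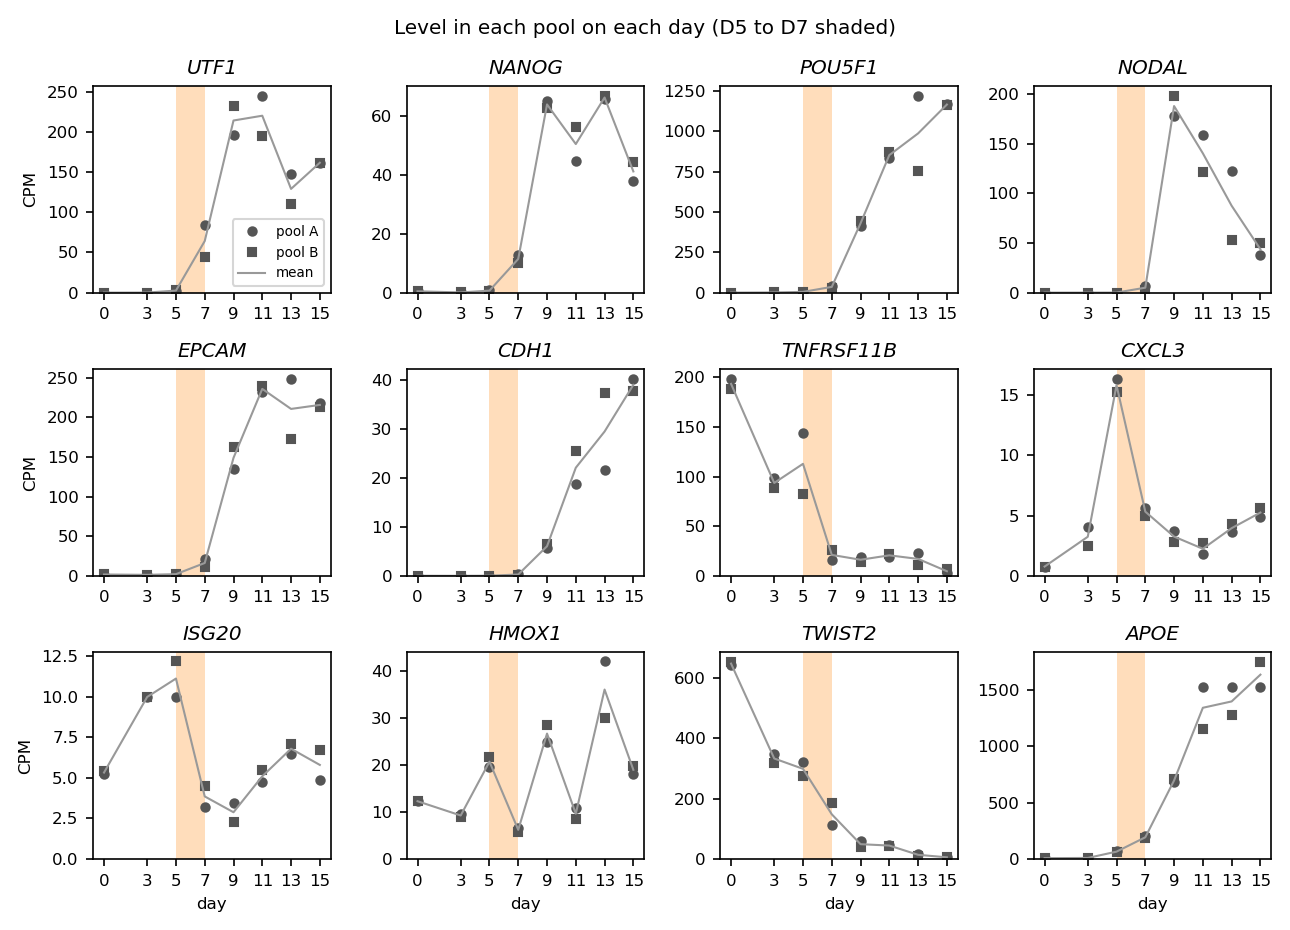
Level in CPM (linear axis from 0) of 12 genes in pools A (circles) and B (squares) on each day, with the mean as a line and the interval from D5 to D7 shaded. UTF1, NANOG, POU5F1, NODAL, EPCAM and CDH1 are near 0 up to D5 and are far higher on D9 than on D7.

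**Figure D5:**
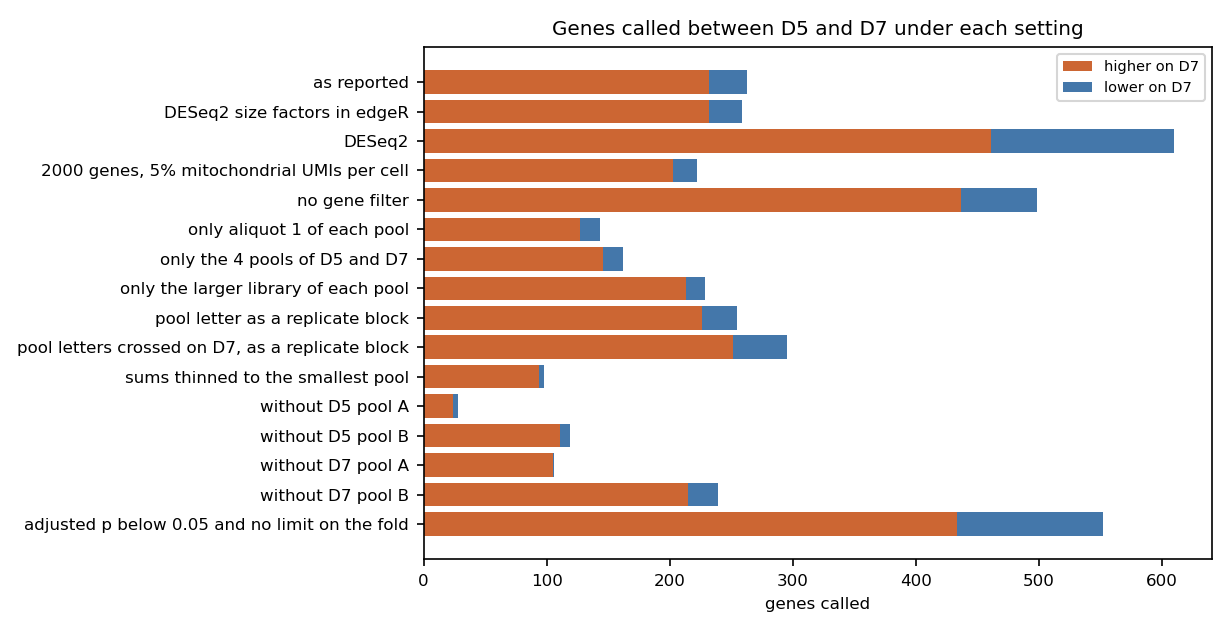
Number of genes called between D5 and D7 as reported and under 15 other settings, split into genes higher (orange) and lower (blue) on D7. Rises outnumber falls in each, and the total runs from 28 without D5 pool A to 610 with DESeq2.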

How the data were processed

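The authors deposited UMI counts per gene and cell (33694 genes), made with Cell Ranger 2.2 on hg38, per the labels. Barcodes under 1000 detected genes or over 10% mitochondrial UMIs were dropped, and no doublet caller was run. Counts were summed per pool over its libraries, to 85319638 and 35282799 UMIs for D5 pools A and B and 142760321 and 136776915 for D7. Genes with a UMI in at least 5% of all kept cells of the 8 days were tested. edgeR 4.0.16 (R 4.3.3) fitted all 16 pools with TMM scaling and a quasi-likelihood test of D7 against D5, with Benjamini-Hochberg adjustment. The 2 pools of a day are not said to come from separate cultures beyond separate chips, so p-values measure the spread between pools. CPM are TMM-scaled, except in the check of cell type markers, which uses plain totals. Shares of cells used thinning to 5000 or 20000 UMIs (Python 3.11.15, numpy 2.4.6, scipy 1.17.1); intervals and floors cover counting error only. Coordinates are of GENCODE genes on GRCh38, and promoters are RefSeq's (GRCh38.p14).

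Named genes were drawn from the 12 largest rises and falls with at least 10 CPM in both pools of the higher day, the transfected factors, up to 4 called genes per list each way, the 2 most abundant where fewer than 2 were called, and genes the study discusses (list members not all named); ACVR2B, DPPA4, ID1, ID3, CDH2, LEFTY1 and MX1 were added after their values were seen. The calls of ACVR2B, DPPA4, ID1 and ID3 were not followed with each pool left out. The members and lists were chosen with earlier results of these data known. The test was checked on simulated data. Alternatives were DESeq2 1.42.0, its size factors, stricter cells, no gene filter, 1 aliquot per pool, 4 pools only, a pool block, thinned sums, each pool left out, and a looser threshold.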

Additional observations from a re-analysis of the deposited data

How the results depend on the processing

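Against 263 genes called, DESeq2 gave 610, no gene filter 498, a threshold of 0.05 on the adjusted p, whatever the fold, 552, the 4 pools of D5 and D7 alone 162, aliquot 1 of each pool alone 143 and sums thinned to the smallest pool 98. Leaving out 1 pool gave 28 to 239. The cause was not tested. With the pool letter as a replicate block the count was 255. The letters do not pair the samples: deviations of same-letter pools correlated at -0.399 between D5 and D7, and crossing the letters on D7, chosen after seeing the data, gave 295 calls. The log2 fold change of none of the 50 called genes that the naming rule chose changed sign under any alternative. Their pools did not overlap between days, so leaving out a pool could hardly have reversed it. Few of the 50 were called with every pool left out in turn. The share of cells with SOD2, a called gene, did change sign. D7 minus D5, it was -11.6 points at 5000 UMIs, -10.9 at 20000 and 2.73 without thinning. Genes without a call did change sign. Without a gene filter the log2 fold change was 0.0122 for FDFT1, 0.023 for SOCS1 and 0.0235 for IGFBP7. With aliquot 1 alone it was -0.424 for LEFTY2, -0.453 for COL1A1, -0.16 for GAPDH, -0.00595 for FDPS and -0.133 for HMGA1. For COL1A1 it was -0.000681 with the 4 pools alone and -0.0213 with crossed letters. For IGFBP7 it was 0.00253 with the larger library of each pool, chosen after seeing the data, and 0.00373 with the replicate block. For MITF it was -0.868 with thinned sums. With 1 pool left out the values ran from -0.199 to 0.355 for BAX, -0.025 to 0.459 for CKS2, -0.901 to 0.61 for COL1A1, -0.0748 to 0.268 for COL4A2, -0.202 to 0.0785 for FDFT1, -0.0779 to 0.206 for FDPS, -0.0655 to 0.198 for GAPDH, -0.937 to 0.0841 for HBA1, -0.0946 to 0.472 for HMGA1, -0.335 to 0.263 for IGFBP7, -1.27 to 0.314 for KLF4, -0.326 to 0.0933 for LAMC1, -0.317 to 3.08 for LEFTY2, -1.36 to 0.0107 for LIN28A, -0.188 to 0.215 for MET, -0.426 to 0.206 for SLC3A2, -0.125 to 0.0367 for SOCS1, -0.184 to 0.38 for TCF7L2 and -0.065 to 0.314 for TUBB4B.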

Other observations

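The following lists were written after the calls were seen, so their counts are descriptions with no test of the list. Over all genes 1.81% rose and 0.242% fell, and both pools of D7 were above both of D5 in 22.8% and below in 21.8%. Among 21 muscle and heart genes, 8 rose, among them ANKRD1, a stretch-responsive nuclear protein, from 2.48 and 6.21 CPM on D5 to 43.9 and 28.8 CPM on D7, and both pools of D7 were above both of D5 in 18. Among 25 genes of peptide hormones, 8 rose, with NPPB in both lists. The call of ANKRD1 was lost without D5 pool A or D7 pool A (adjusted p up to 0.0229), and its libraries overlapped, with 1 aliquot of D5 pool B at 15.4 CPM and the aliquots of D7 pool B at 76.3 and 14.4 CPM. EDN1, endothelin 1, went from 3.41 and 2.87 CPM to 15.3 and 10.9 CPM, and KISS1, kisspeptin, from 2.01 and 1.95 CPM to 9.93 and 6.80 CPM. STC1, stanniocalcin, was at 244 and 187 CPM on D5 and 85.1 and 64.6 CPM on D7, without a call.

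Among 31 genes of the oxidative stress response, 4 fell (HMOX1, TRIM16, TRIM16L and GLRX) and none rose, with a median log2 fold change of -0.25 and both pools of D7 below both of D5 in 14. TRIM16 and TRIM16L are near copies that can share reads. CSH1, a placental lactogen gene, had no UMI on D5 and 548 on D7, at least 80.1-fold higher. It shares reads with its near copies, and its call was lost without D5 pool A (adjusted p = 0.0388). Of the other 4 lists written in this way, circadian clock genes (1 of 18 fell), SR splicing factors (1 of 18), histone genes (1 of 25) and glypicans, ephrins and semaphorins (2 of 42 rose) had few calls.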
